A study of Rattus norvegicus with 2 samples.

Results

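The genes described here are 8 regulators of mRNA stability: Zfp36, Zfp36l1 and Zfp36l2 of the tristetraprolin family, Zc3h12a (Regnase-1), the roquin genes Rc3h1 and Rc3h2, and the RNA-binding protein genes Elavl1 (HuR) and Khsrp (KSRP). They were taken by name from the table of all genes, where all 8 were found among 14913 distinct names, and all 8 were among the 12102 names with 20 or more reads over both libraries. Poly(A)-selected RNA was sequenced from RBL-2H3 cells, a wild-type rat basophilic leukemia line used as a model of mast cells and basophils, in 1 library of cells incubated with IgE and 1 library of untreated cells. Neither the dose of IgE, nor the time of incubation, nor any addition of antigen is stated. The series asked what follows IgE-mediated activation of these cells. Each group is 1 library of 1 cell line, so no replicate stands behind any difference below, and no test across samples was made.

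Many cytokine, growth factor and immediate early mRNAs are short-lived because proteins bind AU-rich elements or stem-loops in their 3′ untranslated regions. Zfp36 family proteins bind AU-rich elements and recruit the CCR4-NOT deadenylase, Khsrp also promotes decay of AU-rich mRNAs, and Elavl1 mostly stabilises them. Regnase-1 is an endonuclease that cuts mRNAs at stem-loops with the help of the helicase Upf1, and roquins bind stem-loops and recruit deadenylation factors. In activated mast cells and macrophages such proteins limit how long inflammatory transcripts last.

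The IgE library held 26268330 counted reads and the untreated library 20917968. Levels are given in CPM (a gene's reads relative to the TMM-scaled library size), and 3 reads correspond to 0.115 CPM in the IgE and 0.143 CPM in the untreated library. Of 16 mast cell and basophil markers 13 were measured, among them Gata2 at 2303 and 2479 CPM, Ms4a2 at 1375 and 1252 CPM and Kit at 1136 and 1168 CPM in the IgE and untreated library. Of other cell types, 3 of 12 macrophage markers summed to 3.21 and 5.48 CPM, 1 of 10 neutrophil markers stood at 1.49 and 1.24 CPM with Camp at 0 in both, 4 of 12 lymphocyte markers summed to 122.5 and 113.1 CPM, and 2 of 12 fibroblast and epithelial markers to 400.4 and 425.9 CPM. Of the 13 mast cell and basophil markers 4 were at least 1.2-fold higher with IgE, and none was lower by as much. Of the 12102 genes tested, 13.1% were higher and 10.9% lower by that much. The 4 markers were Il4 (log2 fold 0.94 on 22 and 9 reads), Fcer1a (0.34), Cma1 (0.28 on 189 and 125 reads) and Cpa3 (0.27). All 3 measured macrophage markers were at least 1.2-fold lower, each on few reads in the IgE and untreated library. They were Msr1 (-2.13 on 7 and 26 reads), Csf1r (-0.63 on 37 and 46) and Cd68 (-0.42 on 40 and 43). The part of these markers in the results below was not tested.

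Of the 8 regulators, Zfp36l1 and Zfp36 were higher in the IgE library, Khsrp and Rc3h1 were slightly lower, and Zfp36l2, Rc3h2, Elavl1 and Zc3h12a lay close to level. None was at least 2-fold higher, against 1.33% of all genes tested, and none at least 2-fold lower, against 1.3%. By a smaller rule of size, 2 of 8 were at least 1.2-fold higher, where 13.1% of all genes tested were, and 0 of 8 at least 1.2-fold lower, where 10.9% were. At 1.5-fold none was higher, against 3.66% of all genes tested, and none lower, against 3.53%. Genes with few reads make up much of these shares. Among the 6955 genes with 1000 or more reads, which include 6 of the 8 regulators but not Zfp36 or Zc3h12a, 5.31% were higher and 2.73% lower by 1.2-fold or more. At a minimum of 100 reads, which all 8 regulators pass, 21 genes of 10367 were higher and 15 lower by 2-fold or more. The median log2 fold of the 8 genes was -0.04, beside 0.00 for all genes tested, with 2 genes above 0 and 6 below, where 51.1% and 48.9% of all genes tested were.

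**Figure D1:**
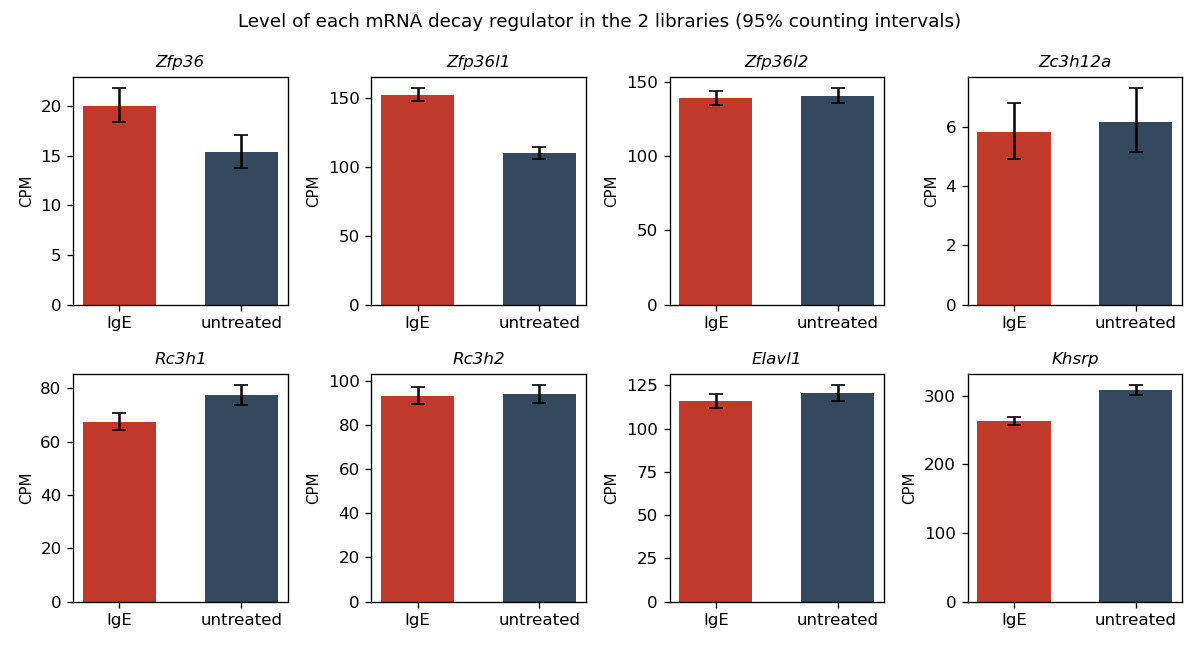
Level of each of the 8 regulators in CPM (vertical axes, from 0, a separate scale for each gene) in the IgE and the untreated library, with exact 95% Poisson intervals that cover counting error only. Zfp36 and Zfp36l1 stand higher in the IgE library with intervals that do not meet, Rc3h1 and Khsrp stand lower, and the intervals of the other genes overlap.

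Zfp36l1 had the largest difference of the 8 genes. It encodes a tristetraprolin relative that acts in the decay of AU-rich mRNAs, with roles shown in lymphocyte development in mice. It had 3984 reads in the IgE library and 2303 in the untreated library, or 152.1 and 109.7 CPM. The log2 fold was 0.47 (exact 95% counting interval 0.40 to 0.55), a level 38.6% higher with IgE. Among the 6955 genes with 1000 or more reads, whose log2 folds had an SD of 0.152, 32 genes including Zfp36l1 were at least as high, which is 0.460% of them. Over all genes tested the share was 5.32%. Cytosolic ribosomal protein transcripts, with a median log2 fold of 0.24 over 44 genes, and mitochondrial genome transcripts, with 0.16 over 13, were also higher with IgE, and whether what moved them also moved Zfp36l1 was not tested. In a bulk library, more cells with a transcript and more transcript per cell cannot be told apart.

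Zfp36, which encodes tristetraprolin itself and is known as an immediate early gene, had 524 reads in the IgE library and 322 in the untreated library. These are 20.01 and 15.34 CPM, with a log2 fold of 0.38 (0.18 to 0.59), a level 30.4% higher with IgE. Over all genes tested 7.49% were at least as high. Among genes with 1000 or more reads the share was 1.34%, but Zfp36, with 846 reads, is not of that class. Zfp36l2, the third paralog, had 3643 and 2954 reads in the IgE and untreated library, 139.1 and 140.8 CPM, and a log2 fold of -0.02 (-0.09 to 0.05).

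The paralogs therefore differed among themselves. The ratio of reads between 2 genes of the same library does not depend on scaling between libraries. It was compared for 11 pairs of the regulators, chosen after the values were seen. The pairs lay within families, between Zc3h12a and the roquin genes, and against Elavl1 and Khsrp. The counting interval excluded 0 for 8 of the 11. Zfp36l1 had 1.09 reads for each read of Zfp36l2 in the IgE library and 0.780 in the untreated library, so its log2 fold was 0.49 above that of Zfp36l2 (0.39 to 0.59). The log2 fold of Zfp36 was 0.40 above that of Zfp36l2 (0.18 to 0.62). Zfp36 and Zfp36l1 could not be told apart at this depth, with a difference of -0.09 (-0.30 to 0.13). These ratios compare libraries, and reads per gene length were not computed, so they do not say which paralog is more abundant.

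The promoter windows of the 3 paralogs are shown because 2 of the genes were higher together and the third was not. They run from 250 bases before to 50 bases after the start of the gene, and come from RefSeq on build GRCr8, which is not the rn6 build named in the submitters' processing notes. They lie at chr1:92799059-92799358 on the minus strand for Zfp36, at chr6:104668641-104668940 on the minus strand for Zfp36l1 and at chr6:16242372-16242671 on the plus strand for Zfp36l2. Capitals mark the matches of either EGR sequence (GCGTGGGCG or GCGGGGGCG), of the CArG box (the element of serum response factor), of the AP-1 sequence TGANTCA and of TATAAA, each searched on both strands.
Zfp36: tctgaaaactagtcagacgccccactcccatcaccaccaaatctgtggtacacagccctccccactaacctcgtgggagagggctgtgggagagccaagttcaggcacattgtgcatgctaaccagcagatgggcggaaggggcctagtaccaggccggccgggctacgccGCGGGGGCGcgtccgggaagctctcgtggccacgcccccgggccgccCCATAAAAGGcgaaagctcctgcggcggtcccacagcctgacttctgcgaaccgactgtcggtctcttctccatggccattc
Zfp36l1: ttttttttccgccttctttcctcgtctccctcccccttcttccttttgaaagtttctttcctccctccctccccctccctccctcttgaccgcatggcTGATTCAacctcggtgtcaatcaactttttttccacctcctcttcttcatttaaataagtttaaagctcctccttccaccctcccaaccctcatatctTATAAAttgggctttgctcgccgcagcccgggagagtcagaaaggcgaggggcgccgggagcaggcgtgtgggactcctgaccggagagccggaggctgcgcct
Zfp36l2: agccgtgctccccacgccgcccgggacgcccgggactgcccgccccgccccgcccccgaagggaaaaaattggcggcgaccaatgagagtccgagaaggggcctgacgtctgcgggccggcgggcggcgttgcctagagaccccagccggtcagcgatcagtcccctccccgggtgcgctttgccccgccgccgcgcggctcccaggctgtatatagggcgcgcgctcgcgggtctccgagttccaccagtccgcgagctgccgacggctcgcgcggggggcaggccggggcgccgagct

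The Zfp36 window held GCGGGGGCG at bases 172 to 180 and the CArG box CCATAAAAGG at bases 219 to 228, counted from the 5′ end of the window. Of 33469 windows of the same length, 3.2% held either EGR sequence, 1.64% the CArG box and 0.0329%, or 11 windows, held both, a combination looked up because the Zfp36 window held it. The Zfp36l1 window held neither and had TGATTCA at bases 99 to 105, a match to TGANTCA, which 7.33% of windows held, and TATAAA at bases 197 to 202, which 14.2% held. Both motifs also stood in windows of regulators that were lower with IgE, TGANTCA in that of Rc3h1 at bases 290 to 296 and TATAAA in that of Khsrp at bases 48 to 53. None of the marked motifs stood in the Zfp36l2 window. The cAMP response sequence TGACGTCA and the NF-kappaB motif were found in none of the 7 regulators that had an entry, and in 1.83% and 4.18% of all windows. The GC box GGGCGG, left in lower case, stood in the windows of Zfp36, Zfp36l2, Zc3h12a, Rc3h1 and Khsrp and in 33.1% of all windows. A match is a description of the letters and not a bound site.

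**Figure D2:**
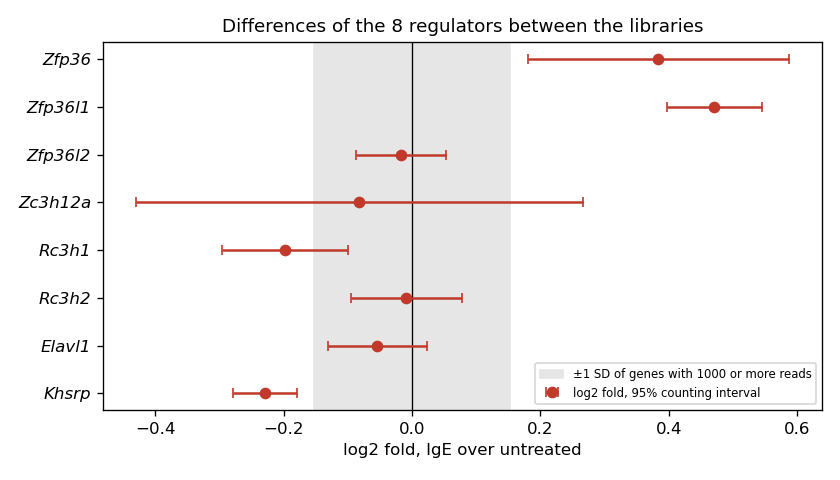
Log2 fold of each regulator, IgE over untreated (horizontal axis), with the exact 95% counting interval, against a grey band of 1 SD (0.152) on each side of 0 for genes with 1000 or more reads. Zfp36l1 at 0.47 and Zfp36 at 0.38 lie right of the band with their whole intervals. Khsrp at -0.23 lies left of it, and the interval of Rc3h1 at -0.20 reaches into it. Zfp36 and Zc3h12a have fewer than 1000 reads and are not among the genes of the band.

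Neither the Regnase-1 gene nor either roquin gene had a log2 fold above 0. Zc3h12a had 152 reads in the IgE library and 129 in the untreated library, 5.80 and 6.15 CPM, the lowest counts of the 8 genes. Its log2 fold was -0.08, with a counting interval of -0.43 to 0.27, which leaves its direction undetermined at this depth. Rc3h1 (roquin-1) had 1766 and 1623 reads, 67.4 and 77.3 CPM, and a log2 fold of -0.20 (-0.30 to -0.10). Rc3h2 (roquin-2), which overlaps in function with roquin-1 in mice, had 2443 and 1970 reads, 93.3 and 93.9 CPM, and a log2 fold of -0.01 (-0.10 to 0.08). The log2 fold of Rc3h1 was 0.19 below that of Rc3h2, a difference of -0.19 (-0.32 to -0.06). Zc3h12a could not be told apart from either roquin gene at this depth. Its log2 fold differed by 0.11 from that of Rc3h1 (-0.25 to 0.48) and by -0.07 from that of Rc3h2 (-0.43 to 0.29).

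Of the other AU-rich element binding proteins, the stabiliser Elavl1 was nearly level and the decay factor Khsrp was lower. Elavl1 had 3039 reads in the IgE library and 2528 in the untreated library, 116.1 and 120.5 CPM, and a log2 fold of -0.05 (-0.13 to 0.02). Khsrp had 6883 and 6465 reads, 262.9 and 308.1 CPM, and a log2 fold of -0.23 (-0.28 to -0.18), a difference of -14.7% in level. Among genes with 1000 or more reads, 4.62% were at least as low as Khsrp and 7.07% at least as low as Rc3h1, against 13.0% and 15.5% over all genes tested. Set against Khsrp, the log2 fold was 0.70 higher for Zfp36l1 (0.61 to 0.79), 0.61 higher for Zfp36 (0.40 to 0.82) and 0.18 higher for Elavl1 (0.08 to 0.27).

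In all, the counting interval lay above 0 for 2 of the 8 regulators and below 0 for 2, where it lay above 0 for 20% and below 0 for 18.6% of all genes tested. In the authors' deposited table the log2 folds were 0.46 for Zfp36l1 and 0.37 for Zfp36, with p-values of 0.0265 and 0.104 and adjusted p-values of 0.757 and 1. The deposited adjusted p-values of the other 6 regulators were no lower. The authors' second table held 451 of the 14913 names, and 0 of the 8 regulators were among them. No name in that second table had a log2 fold nearer to level than 1.00 in either direction, a size that no regulator reached. The deposited log2 folds were recomputed with edgeR's exact test, with a largest difference of 4.7e-08. That run assumed a coefficient of variation of 0.1 between replicates, and its p-values were not compared with the deposited ones. With 1 library per group, the deposited p-values do not rest on measured replicates.

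**Figure D3:**
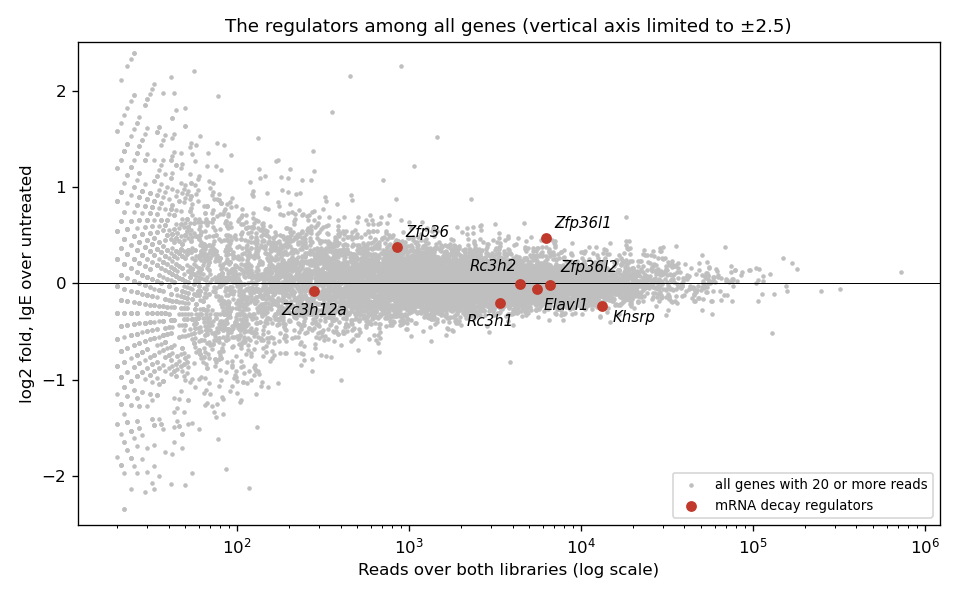
Log2 fold of every gene with 20 or more reads, IgE over untreated (vertical axis, limited to 2.5 in either direction, beyond which 21 genes lie), against reads over both libraries (log scale), with the 8 regulators in red. Zfp36l1 sits at the upper edge of the genes of like read number, Zfp36 above most of them, and the others within the main band.

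Other regulators of the same kind differed little, as most genes did. Of 22 listed paralogs and other proteins that bind 3′ untranslated regions, 16 were measured. All 16 lay within 1.2-fold, with a median log2 fold of -0.04. Among all genes tested, 13.1% were higher and 10.9% lower by 1.2-fold or more. All 16 had 1000 or more reads over both libraries. For genes with that many reads these shares were 5.31% and 2.73%, so the count does not set the 16 apart. The highest of the 16 were Tial1 (0.23) and Arid5a (0.12). Tial1 is a translational repressor that binds U-rich sequence, and Arid5a stabilises mRNAs that Regnase-1 cuts in mice. Tia1, the paralog of Tial1, was lowest at -0.20, followed by the cold shock domain protein gene Ybx1 (-0.19). The Regnase paralog gene Zc3h12c, given here as a relative of Zc3h12a, was at -0.12.

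The enzymes to which the regulators deliver mRNAs, and their partners, were also mostly near level. Of 19 measured genes of CCR4-NOT, other deadenylases and their partners, none was higher by 1.2-fold or more and 2 were lower. Over all genes tested 13.1% were higher and 10.9% lower by as much. The median log2 fold of the 19 genes was -0.02. Cnot1, the scaffold of CCR4-NOT that Zfp36 proteins contact, stood at 929.9 and 1005 CPM in the IgE and untreated library (log2 fold -0.11, -0.14 to -0.09). The catalytic subunits Cnot6l (0.16) and Cnot7 (0.12) were highest. Tob2, an adaptor of the deadenylase, was at -0.35 (-0.47 to -0.22), and Tnks1bp1, which binds CCR4-NOT, at -0.63 (-0.98 to -0.29) on 127 and 158 reads in the IgE and untreated library.

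Decapping and 5′ to 3′ decay held 19 measured genes, of which 4 passed the 1.2-fold rule upwards and 1 downwards, with a median log2 fold of 0.11. The 4 of 19 higher and 1 of 19 lower stand beside 13.1% and 10.9% of all genes tested. Lsm5 (0.54, 0.34 to 0.74) and Lsm1 (0.37, 0.17 to 0.57), subunits of the ring that binds deadenylated mRNAs, were highest. The scaffold Edc4 was at -0.19 and the translational repressor Gigyf2 at -0.29.

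Of 18 measured genes of the RNA exosome and SKI complex, 1 was at least 1.2-fold higher, against 13.1% of all genes tested. None was lower by as much, against 10.9%. The median log2 fold was 0.01. The SKI subunit Wdr61 (0.32) and the exosome subunit Exosc4 (0.24) were highest, and the helicase Skiv2l (-0.17) and Exosc5 (-0.04) lowest. Of 10 nonsense-mediated decay genes 8 were below 0, where 48.9% of all genes tested were, and 1, Smg9 (-0.29), was at least 1.2-fold lower, which is close to the 10.9% of all genes tested. Upf1, the helicase that Regnase-1 needs, stood at 233.5 CPM in the IgE and 260.9 CPM in the untreated library (-0.16, -0.21 to -0.11). Smg5 was also at -0.16, and Upf3b (0.10) and Upf3a (0.06) were highest.

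All 21 listed kinases, phosphatases, 14-3-3 proteins, proteases and other proteins that act on the regulators or upstream of them were measured. All 21 lay within 1.2-fold, with a median log2 fold of 0.07. Most genes did so too, since 13.1% of all genes tested were higher and 10.9% lower by 1.2-fold or more. Mapkapk2, the kinase that phosphorylates tristetraprolin and restrains its activity, stood at 163.9 and 154.9 CPM in the IgE and untreated library (0.08, 0.01 to 0.15). The highest were Mapkapk3 (0.17, -0.35 to 0.70, on 76 and 54 reads) and the p38 activator Map2k3 (0.14). The lowest were Ikbkb (-0.12), whose kinase marks Regnase-1 for degradation in mice, and the phosphatase catalytic subunit Ppp2ca (-0.12).

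**Figure D4:**
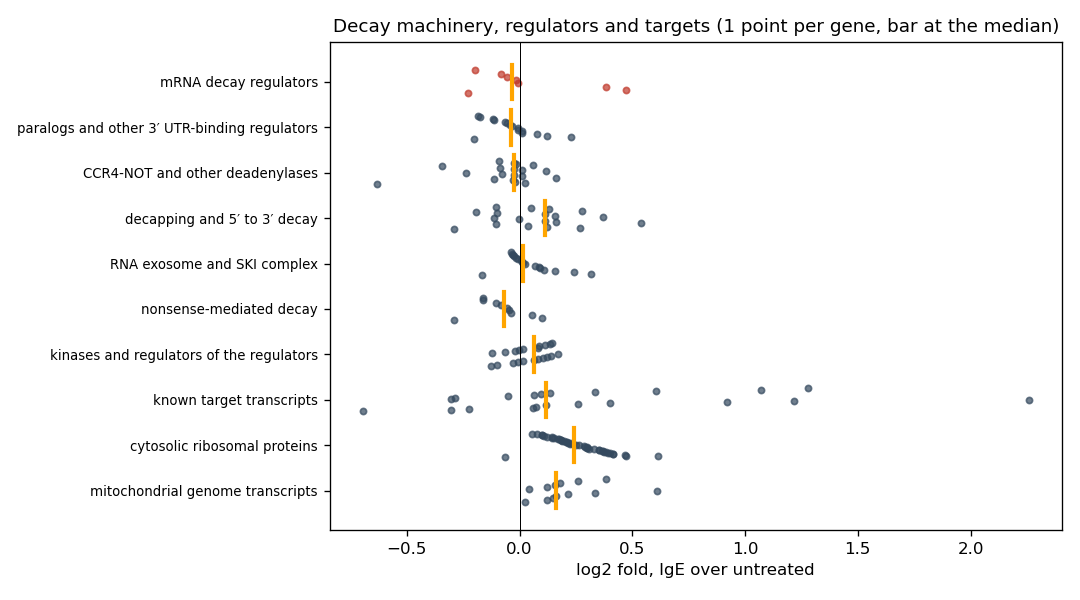
Log2 fold, IgE over untreated (horizontal axis), with 1 point per measured gene in each list and an orange bar at the list's median. The decay machinery and the upstream regulators lie between -0.35 and 0.32 except for Tnks1bp1 (-0.63), Lsm1 (0.37) and Lsm5 (0.54), while the target transcripts, some of them on few reads, run from -0.70 to 2.26.

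The last list held transcripts that these proteins are known to bind or degrade. Of 36 listed, 21 were measured, 3 had too few reads and 12 were not analysed here. Of the 21, 4 were higher by 2-fold or more and none was lower by that much, and by the 1.2-fold rule 8 were higher and 4 lower. Over all genes tested 1.33% were higher and 1.3% lower at 2-fold, and 13.1% and 10.9% at 1.2-fold. The median log2 fold was 0.12. The list was written with earlier results of these data known, including those of Ccl2, Egr1, Nfkbiz and Nfkbid, so its counts and its spread are no independent evidence, and several members had fewer reads than any of the regulators.

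The 4 at least 2-fold higher were Ccl2 (2.26, 1.99 to 2.54), a monocyte chemoattractant, Nfkbid (1.28, 0.78 to 1.82) and Nfkbiz (1.07, 0.83 to 1.32), nuclear IkappaB proteins whose mRNAs are roquin and Regnase-1 targets in mice, and the transcription factor gene Egr1 (1.22, 1.02 to 1.42). Tnf, the best known target of tristetraprolin, had 50 reads in the IgE library and 21 in the untreated library (0.92, 0.17 to 1.74). Lif was at 0.61, Fos at 0.40, Ier3 at 0.33 and Ptgs2 at 0.26. Tfrc, the transferrin receptor gene and a Regnase-1 target in mice, stood at 912.9 and 873.7 CPM in the IgE and untreated library (0.06, 0.04 to 0.09).

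Other targets were level or lower. Rel (0.14), Irf4 (0.12), Pim1 (0.07), Ier2 (0.06) and Myc (-0.05) lay near 0. Il13 was at 0.09 on 24 reads in the IgE library and 18 in the untreated library, with an interval of -0.85 to 1.06 that leaves its direction undetermined at this depth. Icos, the costimulatory receptor gene through which roquin-1 was characterised in mice, was at -0.22 (-0.37 to -0.08), Vegfa at -0.29 (-0.37 to -0.20) and Ccnd1 at -0.30 (-0.59 to -0.02). Tnfrsf4 was at -0.30 on 10 reads in each library. Notch1, a target of Zfp36l1 and Zfp36l2 in mouse thymocytes, had 221 reads in the IgE library and 287 in the untreated library, with a log2 fold of -0.70 (-0.96 to -0.44). A level of mRNA holds both synthesis and decay, and the libraries do not measure decay.

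**Figure D5:**
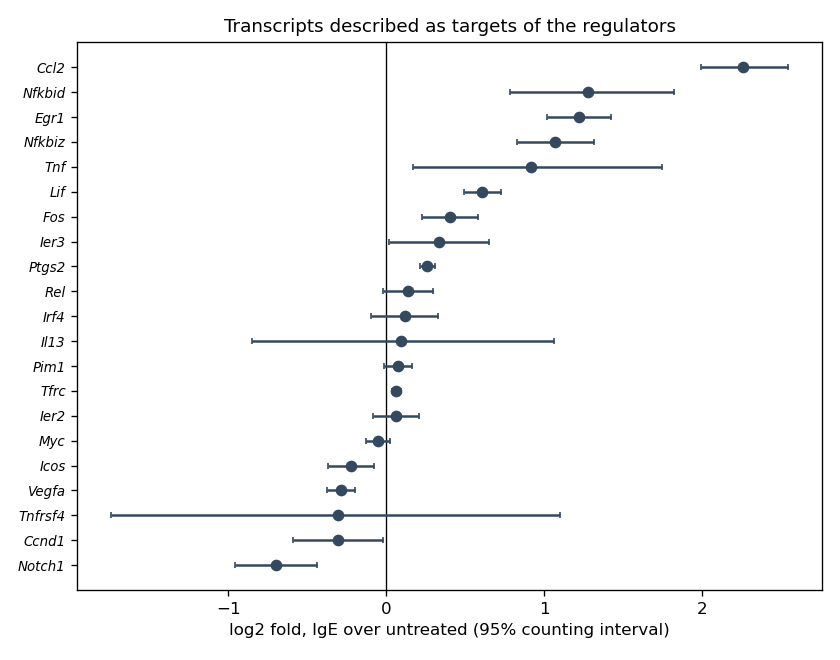
Log2 fold, IgE over untreated (horizontal axis), of the 21 measured target transcripts with exact 95% counting intervals, ordered from the highest at the top. Ccl2 at 2.26 stands highest and Notch1 at -0.70 lowest, and the widest interval is that of Tnfrsf4, with 10 reads in each library.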

How the data were processed

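The main table that the authors deposited holds unnormalised read counts for each gene name, beside p-values, adjusted p-values and log2 fold changes of their own, per the file headers. They deposited a second table of 451 selected names. Build rn6 and the tools HISAT2 2.1.0, fastp 0.23.0 and DESeq2 1.18.1 appear in the submitters' processing notes, without roles. Of the counting step, tool and strand setting are not given in the sources used, so reads of overlapping genes and near-identical copies cannot be told apart. Of 16990 rows, 2077 repeated a name with identical values and each name was kept once.

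From the counts, edgeR 4.0.16 under R 4.3.3 gave CPM and log2 folds (IgE over untreated), using TMM factors and adding a prior of 0.5 counts, for genes whose reads in both libraries summed to 20 or more. Intervals are exact (Clopper-Pearson for ratios and Fisher for pairs of genes, 95%) and cover only the error of counting, because each group is 1 library. No molecular identifiers show that reads are independent molecules, so even for counting error the intervals may be too narrow. The calculation was tested on simulated data. With 1 library per group no test was made, and differences were counted past 2-fold and 1.2-fold. The genes, lists and size rules were chosen with earlier results of these data known. Every one of the 8 regulators is named. From each list of decay machinery, regulators and targets the text names the 2 highest and 2 lowest with 100 or more reads, any gene at least 2-fold apart, and Cnot1, Mapkapk2 and Upf1. Zc3h12c, the other decapping genes, the other target transcripts and the cell type markers named were added after their values were seen. Older names were matched for 3 list genes through the RefSeq gene table. The alternatives tried were scaling by library totals or by DESeq2 1.42.0 size factors, a larger prior (5 counts), a minimum of 100 reads or none at all, counting at 1.5-fold, and medians without the farthest gene.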

Additional observations from a re-analysis of the deposited data

How the results depend on the processing

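All 40 alternative log2 folds of the 8 regulators stayed within the gene's counting interval, with a range of 0.46 to 0.47 for Zfp36l1, 0.37 to 0.38 for Zfp36 and -0.24 to -0.23 for Khsrp. A changed minimum of reads could not alter these log2 folds, because the scaling used all genes, so those settings did not test them. All 48 alternative medians of the regulators and the 7 lists also stayed within the median bounds of their genes. The minimum of reads could alter only the median of the target transcripts, the only list with genes under 100 reads. Of the counts of regulators, 21 of 22 did not change, and a 1.5-fold rule gave 0 higher in place of 2. The minimum of reads could not alter these counts either, since all 8 regulators had 100 or more reads. Over all genes, 161 were higher and 157 lower by 2-fold or more. These counts became 104 and 99 with 5 prior counts, 855 and 875 without a minimum of reads, and 21 and 15 when 100 reads were asked for. At 1.2-fold, 1587 higher and 1324 lower became 2593 and 2368 with no minimum, and 979 and 692 with a minimum of 100 reads, both by adding or removing genes with few reads. No paired analysis was possible because there was only 1 library of each kind, which also means that leaving a library out leaves nothing to compare. Depth limits Zc3h12a most among the regulators, with 281 reads over both libraries.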

Other observations

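Within the decapping list, 2 sets of genes chosen after their values were seen lay on opposite sides of 0. All 7 LSm ring subunits, Lsm1 to Lsm7, had log2 folds above 0, from 0.04 to 0.54 with a median of 0.16. The decapping enhancers Edc3, Edc4, Patl1 and Ddx6 and the exonuclease Xrn1 all lay below 0, from -0.19 to -0.10. Outside these sets, Dcp1a (0.11), Dcp1b (0.12), Dcp2 (0.13), Lsm14b (0.27) and Eif4e2 (0.05) lay above 0. Lsm14a (-0.003) and Gigyf2 (-0.29) lay below 0. Over the whole decapping list, 12 of 19 genes lay above 0 and 7 below, where 51.1% and 48.9% of all genes tested did. Cytosolic ribosomal protein transcripts lay above 0 for 43 of 44 genes, and a median of 0.24. The same held for 13 of 13 transcripts of the mitochondrial genome, whose median was 0.16. Whether the LSm difference has to do with theirs was not tested.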
